A study of Mus musculus with 3 samples.

Results

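Astrocytes take up the glutamate and potassium that neurons release, move water and bicarbonate across their membranes, and are joined to each other by gap junctions. The 9 genes described here encode parts of that machinery: the glutamate transporters Slc1a2 and Slc1a3, the glutamine synthetase gene Glul, the folate enzyme gene Aldh1l1, the water channel gene Aqp4, the sodium bicarbonate cotransporter gene Slc4a4, the connexin genes Gja1 and Gjb6, and the calcium-binding protein gene S100b. They were chosen by name, and all 9 were found among the 54532 genes of the deposited table. RNA came from the hippocampus of 10-month-old mice on a C57BL/6 background, with 1 library for each of 3 genotypes. These were wild type (WT), PS19, and PS19 heterozygous for loss of Zbp1 (PS19 Zbp1+/-). The PS19 line models tauopathy through a transgene for mutant human tau, driven by the mouse Prnp promoter mainly in neurons. Zbp1 senses Z-form nucleic acids and can start inflammatory cell death. Both the PS19 and the PS19 Zbp1+/- animals carry the tau transgene. The labels give neither the sex of the animals nor whether a library held 1 animal or a pool.

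In the glutamate-glutamine cycle, the transporters clear glutamate from the synapse, Glul converts it to glutamine inside the astrocyte, and neurons take glutamine back and turn it into glutamate. Aqp4 is held at astrocyte endfeet around blood vessels by the dystrophin-associated complex. In the hippocampus, homeostatic genes of this kind are read beside Gfap, the intermediate filament gene that marks reactive astrocytes. Several of the 9 are not exclusive to astrocytes: oligodendrocyte-lineage cells also make S100b and Glul, ependymal cells make Aqp4, and meningeal cells make the connexins.

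Reads recovered per library numbered 16746085 (WT), 16400328 (PS19) and 17109734 (PS19 Zbp1+/-). With 1 library per genotype no difference below has a replicate check, no test across genes was possible, and every interval covers counting error only. An interval of a ratio that excludes 1 therefore compares 2 libraries, not 2 genotypes. Zbp1 was covered by 5 reads in WT, by 91 in PS19 and by 0 in PS19 Zbp1+/-, and a count of 0 allows an FPKM of up to 0.0537. Mouse Mapt, which does not check the human transgene, was at 63.0, 65.1 and 65.3 FPKM. The PS19 Zbp1+/- library had 0 Xist reads and 711 reads of the Y-linked Ddx3y, while the WT and PS19 libraries held 11062 and 13350 Xist reads and 0 Ddx3y reads, so sex and genotype cannot be told apart in either comparison of that library. It also stood apart in RNA of the choroid plexus, whose markers summed to 3499 FPKM for WT, 2224 for PS19 and 27.6 for PS19 Zbp1+/-, and without Ttr, the most abundant of them, to 463, 382 and 20.5. It lacked any read for 57 of 357 genes that had 8 to 12 reads in each of the other libraries. The same count was 5 of 234 genes for WT and 1 of 244 for PS19. The 9 genes had between 801 and 47729 reads in every library. Astrocyte identity genes (a list of 25 including Sox9, Ndrg2 and Sparcl1) reached an FPKM of 1 for 24 genes in each library, and all 12 neuron markers did so too.

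The stretches just before the start sites of 4 of the genes are shown because these genes carry the patterns described below: S100b and Glul had the most and the least divergent levels among genes with a listed start site near that of the table, and Gja1 and Gjb6 kept a nearly constant ratio to each other. The 250 bases before the RefSeq start (GRCm38.p6) lie at chr10:76253586-76253835 on the plus strand for S100b, chr1:153899679-153899928 (plus) for Glul, chr10:56377050-56377299 (plus) for Gja1 and chr14:57133612-57133861 (minus) for Gjb6. Capitals mark matches on either strand to TTGGC, a half-site of the NFI factors that act in astrocyte development, and to CCAAT, and the pair overlap where GCCAAT or its reverse complement is written.
S100b: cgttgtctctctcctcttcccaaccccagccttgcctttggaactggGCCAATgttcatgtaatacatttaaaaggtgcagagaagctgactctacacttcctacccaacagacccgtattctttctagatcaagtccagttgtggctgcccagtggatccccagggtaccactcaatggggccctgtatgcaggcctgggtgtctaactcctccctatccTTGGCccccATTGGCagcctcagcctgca
Glul: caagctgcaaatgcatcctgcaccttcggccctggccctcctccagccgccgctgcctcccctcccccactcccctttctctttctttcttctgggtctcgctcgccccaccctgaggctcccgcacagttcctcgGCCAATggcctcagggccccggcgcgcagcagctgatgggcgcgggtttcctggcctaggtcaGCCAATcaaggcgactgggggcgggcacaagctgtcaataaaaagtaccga
Gja1: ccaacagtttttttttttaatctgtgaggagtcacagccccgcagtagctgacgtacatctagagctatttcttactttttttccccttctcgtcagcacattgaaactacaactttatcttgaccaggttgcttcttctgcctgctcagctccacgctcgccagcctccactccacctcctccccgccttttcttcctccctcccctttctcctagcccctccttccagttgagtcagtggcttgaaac
Gjb6: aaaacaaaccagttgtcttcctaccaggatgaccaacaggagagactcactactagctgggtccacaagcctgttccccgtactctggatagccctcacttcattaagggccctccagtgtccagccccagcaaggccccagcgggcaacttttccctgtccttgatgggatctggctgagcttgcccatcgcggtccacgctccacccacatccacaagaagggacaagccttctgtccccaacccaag
S100b held 3 matches to TTGGC and 2 to CCAAT, Glul held 2 of each, and the windows of both connexin genes held neither. TTGGC was found in 41.5% and CCAAT in 33.8% of 32817 RefSeq windows of this length. The members had 9 listed windows, which belong to 8 of the 9 genes, and 5 of them held TTGGC. The letters TTCNNNGAA, bound by STAT factors, and TATAA were in none of the 4 windows shown and in 7.01% and 22.8% of all windows. Among the members both were found only before Slc1a3. A match is a description of letters and not a binding site.

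Levels are given as FPKM, which counts fragments relative to gene length and library size. A comparison between genes therefore depends on the length used, which for some genes was well above that of the longest GENCODE M21 transcript. It was 10257 bases against 3889 for Gja1 and 8537 against 4435 for Slc1a3, but 1484 in both for S100b. The order of the genes was not recomputed with other lengths. In all 3 libraries Glul was highest and Slc1a2 second. Glul (ENSMUSG00000026473; chromosome 1, 153899944 to 153909723, plus strand) stood at 426 FPKM for WT, 489 for PS19 and 424 for PS19 Zbp1+/-. Together Glul and Slc1a2 made up 72.4%, 66.9% and 76.4% of the summed level of the 9 genes. That sum was 781 FPKM for WT, 1046 for PS19 and 770 for PS19 Zbp1+/-. In WT the order then ran S100b, Slc1a3, Gjb6, Aqp4, Gja1, Slc4a4 and Aldh1l1. In PS19 Aqp4 moved from the sixth to the fifth place, ahead of Gjb6, and Slc4a4 passed Gja1. In PS19 Zbp1+/- Slc1a3 stood above S100b, and Slc4a4 again above Gja1. With these lengths taken as given, 23 of the 24 ratios between neighbours in these orders had a counting interval that excluded 1. The exception was Gja1 over Aldh1l1 in PS19 Zbp1+/-, at 1.07 (95% interval 0.988 to 1.16), so these 2 genes were not told apart at this depth.

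**Figure D1:**
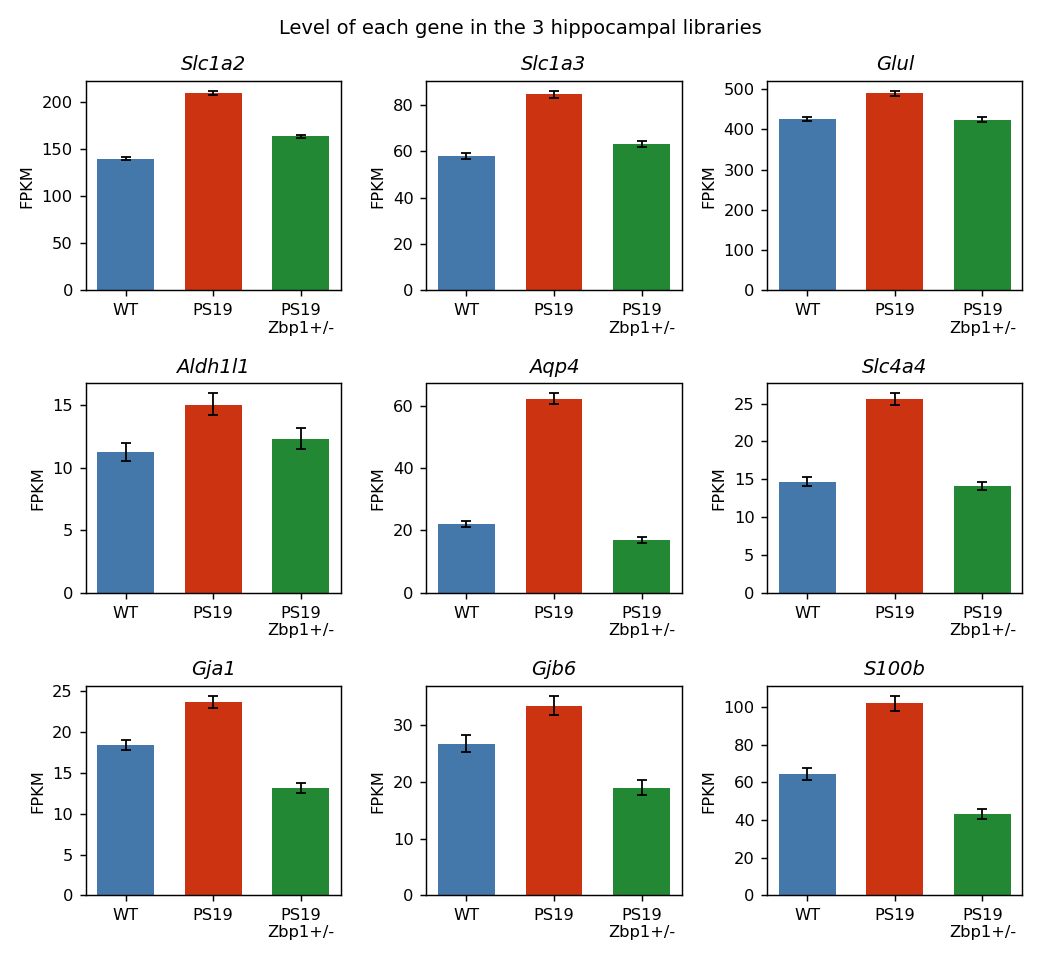
FPKM of the 9 genes (vertical axes, each starting at 0) in the WT, PS19 and PS19 Zbp1+/- libraries, 1 bar per library, with exact Poisson 95% intervals of the read count as black bars. The PS19 bar is the highest in every panel, from 489 FPKM for Glul to 15.1 for Aldh1l1.

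PS19 had the highest level of each of the 9 genes. Against WT all 9 were higher, where 46.3% of the 12703 protein-coding genes tested were higher by any amount and 53.7% lower. The median difference over the 9 genes was 0.54 on the log2(FPKM + 1) scale, against -0.03 over all genes tested. A gene was called at a difference of 1 on that scale, which is 2-fold. By that rule 1 of the 9, Aqp4, was called higher and 0 lower, where 2.2% of all genes were called higher and 0.291% lower. At 1.5-fold, 3 members were higher (Aqp4, S100b and Slc4a4) and 0 lower, where 6.34% of all genes were higher and 2.71% lower. The counting interval of the read ratio lay above 1 for all 9, as it did for 28.3% of all genes, and for 32.7% it lay below 1. In bulk tissue, more cells of a type and more RNA per cell cannot be told apart.

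PS19 Zbp1+/- was lower than PS19 in all 9 genes, where 46.3% of the 12772 genes tested were lower by any amount and 53.7% higher. The median difference was -0.79, against 0.04 over all genes. Aqp4 and S100b were called at least 2-fold lower and 0 members higher, where 5.16% of all genes were called lower and 2.0% higher. After rescaling to TPM 5 members were called lower, and the background was 7.9% lower and 0.927% higher. At 1.5-fold 5 members were lower (Aqp4, S100b, Slc4a4, Gja1 and Gjb6), where 12.1% of all genes were, and 0 were higher, where 9.37% were. All 9 read ratios had an interval below 1, as did 32.6% of all genes, and 39.0% had one above 1. Both of these comparisons share the PS19 library.

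Between PS19 Zbp1+/- and WT the 9 genes differed less. The called members were 0 higher and 0 lower, where 1.07% and 2.28% of 12436 genes were called. At 1.5-fold the members were again 0 and 0, where 6.71% of all genes were higher and 7.12% lower. With 9 genes and shares this small, these counts of 0 do not set the members apart from all genes. The median difference was -0.06 against 0.01 over all genes. Slc1a2, Slc1a3 and Aldh1l1 were above WT by any amount and 6 genes below, where 51.0% of all genes were above and 49.0% below. Under TPM or total-read scaling 1 gene, Slc1a2, was above and 8 were below. By counting interval, Slc1a2 and Slc1a3 were above WT, S100b, Gja1, Gjb6 and Aqp4 were below, and Glul, Slc4a4 and Aldh1l1 were not told apart, where 35.3% of all genes had an interval above 1 and 31.3% below.

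**Figure D2:**
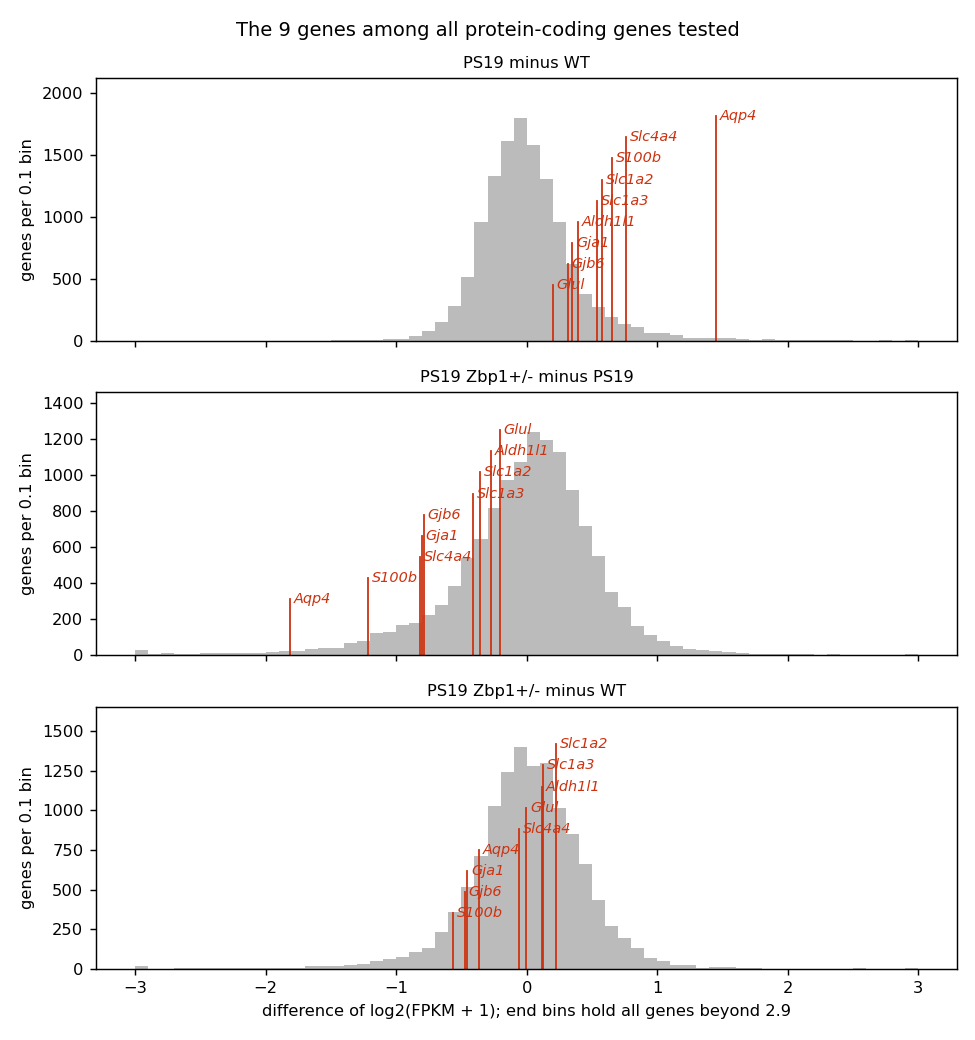
Number of protein-coding genes (vertical axes, genes per 0.1-wide bin) by difference of log2(FPKM + 1) between 2 libraries (horizontal axis), grey, with the 9 genes as labelled red lines whose height only separates the labels. Between PS19 and WT all 9 lie right of 0 with Aqp4 at 1.45, between PS19 Zbp1+/- and PS19 all lie left of 0 with Aqp4 at -1.82, and between PS19 Zbp1+/- and WT they lie from -0.56 to 0.22.

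Slc1a2 encodes the glutamate transporter that carries most glutamate uptake in the adult forebrain. It lies on the plus strand of chromosome 2 (ENSMUSG00000005089; 102658659 to 102790784). Its level was 140.3 FPKM for WT (31789 reads), 210.2 for PS19 (47729 reads) and 164 for PS19 Zbp1+/- (34090 reads). PS19 was the high library, and PS19 Zbp1+/- lay between the others. The read ratio was 1.498 for PS19 over WT (exact Clopper-Pearson 95% interval 1.48 to 1.52), 0.780 for PS19 Zbp1+/- over PS19 (0.769 to 0.791) and 1.17 for PS19 Zbp1+/- over WT (1.15 to 1.19). Its difference between PS19 and WT, 0.58, was exceeded by 6.47% of all genes tested.

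Slc1a3 encodes the second astrocyte glutamate transporter, which is dominant in cerebellum and in radial glia (ENSMUSG00000005360; chromosome 15, 8634124 to 8710764, minus strand). It stood at 57.8 FPKM for WT, 84.4 for PS19 and 63.1 for PS19 Zbp1+/-. The libraries stood in the order they had for Slc1a2. The ratio was 1.46 for PS19 over WT (1.42 to 1.502), and that of PS19 Zbp1+/- over PS19 was 0.748 (0.728 to 0.769). The ratio of Slc1a2 to Slc1a3 within a library was 2.43 for WT (2.37 to 2.49), 2.49 for PS19 (2.44 to 2.54) and 2.60 for PS19 Zbp1+/- (2.54 to 2.66). Gm37310, an unclassified transcript annotated inside Slc1a3, had at most 70 reads, against 8511 or more for Slc1a3.

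Glul, the enzyme step after uptake, had the smallest differences of the 9. Its ratio was 1.15 for PS19 over WT (1.13 to 1.17). PS19 Zbp1+/- over PS19 was 0.866 (0.851 to 0.882), and PS19 Zbp1+/- over WT was 0.996 (0.978 to 1.01). The difference of 0.20 between PS19 and WT was exceeded by 23.4% of all genes. Within a library, Slc1a2 stood at 0.330 of the Glul level for WT, 0.430 for PS19 and 0.387 for PS19 Zbp1+/-. A processed pseudogene that is 96.8% identical to Glul over 1126 bases, Glns-ps1, had 8 or 9 reads per library against at least 22298 for Glul.

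The genes of the neuronal side of the cycle did not share one order. Of its 10 listed genes (enzymes, glutamine carriers, and vesicular and neuronal glutamate transporters), 5 were higher and 5 lower in PS19 than in WT, with a median of -0.05. The glutaminase gene Gls2, the glutamine carrier genes Slc38a1 and Slc38a2, and the vesicular transporter genes Slc17a6 and Slc17a8 had their highest level in PS19, as the 9 genes did, and the other 5 had their lowest level there. In that comparison the vesicular transporter gene Slc17a6 alone was called, at 2.98 FPKM in WT and 7.48 in PS19. Slc17a7, the vesicular transporter of most hippocampal pyramidal neurons, was at 205.6 FPKM for WT, 172 for PS19 and 371 for PS19 Zbp1+/-. Its ratio to Slc1a2 was 1.47 for WT, 0.820 for PS19 and 2.26 for PS19 Zbp1+/-, so that PS19 was the low library and PS19 Zbp1+/- the high one. Got1, an aspartate aminotransferase, was at 149, 118 and 162 FPKM, and Got2, its mitochondrial form, at 46.0, 40.4 and 65.6. Within the Slc1 family the neuronal glutamate transporter Slc1a1 was at 17.0, 13.4 and 17.8 FPKM, lowest in PS19. The neutral amino acid transporter genes Slc1a4 and Slc1a5 were at 19.7, 20.7 and 29.8 FPKM and at 1.11, 2.88 and 0.681 FPKM. Slc1a6, best known from Purkinje cells, was at 5.71, 4.89 and 7.75 FPKM.

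Aldh1l1 encodes a folate-metabolising dehydrogenase widely used to mark astrocytes (ENSMUSG00000030088; chromosome 6, 90486427 to 90600203, plus strand). It was the lowest of the 9, at 11.3 FPKM in WT from 877 reads, 15.1 in PS19 from 1176 and 12.3 in PS19 Zbp1+/- from 880. Its ratio was 1.34 for PS19 over WT (1.23 to 1.46), and PS19 Zbp1+/- stood at 0.817 of PS19 (0.748 to 0.893). The ratio of PS19 Zbp1+/- over WT, 1.09, had an interval of 0.995 to 1.20, so that these libraries were not told apart. Of 18 folate and aldehyde dehydrogenase genes tested between PS19 and WT, Aldh1l1 included, 1 was called higher and 0 lower, with a median of 0.12. The called gene was Aldh1a1, a retinaldehyde dehydrogenase, at 5.90 FPKM for WT, 18.1 for PS19 and 4.46 for PS19 Zbp1+/-. Aldh2, the mitochondrial aldehyde dehydrogenase, was nearly level at 21.8, 24.0 and 22.0 FPKM, as were Aldh5a1 at 14.2, 15.0 and 14.0 and Aldh7a1 at 16.6, 17.8 and 18.2.

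Aqp4, the main water channel of the brain, had the widest spread of the 9 genes (ENSMUSG00000024411; chromosome 18, 15389394 to 15403684, minus strand). It was at 22.2 FPKM for WT (1945 reads), 62.2 for PS19 (5464 reads) and 17.0 for PS19 Zbp1+/- (1364 reads). PS19 was far above both others, and PS19 Zbp1+/- was the lowest. The ratio was 2.80 for PS19 over WT (2.66 to 2.95), 0.273 for PS19 Zbp1+/- over PS19 (0.257 to 0.289) and 0.764 for PS19 Zbp1+/- over WT (0.713 to 0.820). Only 0.897% of all genes had a larger difference between PS19 and WT, and 1.04% a lower one between PS19 Zbp1+/- and PS19. The table's Aqp4 position differs from GENCODE M21, where the gene extends to 15410982, whereas the other 8 genes have the same position in both.

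The genes that anchor Aqp4 at the endfoot had smaller differences. Of 9 listed genes of the dystrophin-associated and Mlc1 complexes, 8 were higher in PS19 than in WT, 0 were called at 2-fold, and the median was 0.35. Lama2, at 0.830 FPKM in WT and 1.46 in PS19, reached 1 FPKM in PS19 alone and could only come out higher there. Mlc1, a membrane protein of endfeet, was at 63.9 FPKM for WT, 109.7 for PS19 and 63.2 for PS19 Zbp1+/-, and its partner Hepacam at 25.6, 41.9 and 29.4. Both were highest in PS19, by 1.72-fold (1.64 to 1.80) and 1.64-fold (1.53 to 1.75) over WT. The basement membrane proteoglycan gene Agrn was at 24.4, 27.0 and 32.8 FPKM, highest in PS19 Zbp1+/-.

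Of the other aquaporin genes, 7 had fewer than 1 FPKM in every library. Aqp1, the choroid plexus water channel, was at 11.5 FPKM for WT, 8.01 for PS19 and 0.0722 for PS19 Zbp1+/-, where it had 3 reads. Aqp11 was at 3.23, 2.79 and 3.52 FPKM. Neither of them had its highest level in PS19.

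Slc4a4 encodes the sodium bicarbonate cotransporter with which astrocytes regulate pH (ENSMUSG00000060961; chromosome 5, 88886818 to 89239653, plus strand). It was at 14.7 FPKM for WT, 25.6 for PS19 and 14.1 for PS19 Zbp1+/-. WT and PS19 Zbp1+/- were not told apart, at a ratio of 0.959 (0.908 to 1.01), and PS19 was above both, at 1.74 over WT (1.66 to 1.82). PS19 Zbp1+/- over PS19 was 0.551 (0.525 to 0.579). Its family did not share one order. Of the neuronal members, Slc4a3 was at 16.3, 15.2 and 25.8 FPKM, Slc4a8 at 6.75, 10.2 and 11.8, and Slc4a10 at 45.3, 38.5 and 35.9. The anion exchanger gene Slc4a2 was at 9.64, 11.1 and 4.05 FPKM and Slc4a7 at 3.82, 4.42 and 3.03. Slc4a5, which choroid plexus expresses, was at 5.40 and 6.00 FPKM in WT and PS19 and had 0 reads in PS19 Zbp1+/-.

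Gja1 and Gjb6 encode the connexins of the astrocyte gap junction network, and their levels kept nearly the same proportion. Gja1 (ENSMUSG00000050953; chromosome 10, 56377330 to 56402513, plus strand) was at 18.4 FPKM for WT, 23.7 for PS19 and 13.2 for PS19 Zbp1+/-. Gjb6 (ENSMUSG00000040055; chromosome 14, 57123303 to 57133611, minus strand) was at 26.7, 33.4 and 18.9 FPKM. For both genes PS19 was the highest library and PS19 Zbp1+/- the lowest. The ratio of PS19 over WT was 1.29 for Gja1 (1.23 to 1.35) and 1.25 for Gjb6 (1.16 to 1.35). PS19 Zbp1+/- over WT was 0.715 for Gja1 (0.677 to 0.756) and 0.709 for Gjb6 (0.648 to 0.776). Within a library, Gja1 stood at 0.690 of Gjb6 for WT (0.646 to 0.737), 0.710 for PS19 (0.670 to 0.753) and 0.696 for PS19 Zbp1+/- (0.641 to 0.755), the smallest variation among the 36 pairs of the 9 genes. They lie on different chromosomes.

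The connexin genes Gjb1 and Gjc3 of oligodendrocytes, which couple to astrocytes through heterotypic junctions, were highest in PS19 too. Of 9 connexin genes tested between PS19 and WT, Gja1 and Gjb6 included, 8 were higher. Gjc1, at 0.985 FPKM in WT and 1.45 in PS19, reached 1 FPKM in PS19 alone and could only come out higher there. Gjb1 was at 6.42 FPKM for WT, 14.8 for PS19 and 6.26 for PS19 Zbp1+/-. Gjc3 was at 13.7, 22.2 and 7.93 FPKM. Gjb2, made by astrocytes and meningeal cells, was not highest in PS19: it stood at 3.73 and 3.65 FPKM in WT and PS19 and at 0.683 in PS19 Zbp1+/- (155, 152 and 26 reads). Leptomeningeal fibroblast markers summed to 480.5 FPKM for WT, 365 for PS19 and 94.7 for PS19 Zbp1+/-, with 0 of 10 markers at 0 in any library. Ptgds, which oligodendrocytes also express, made up 447, 342 and 70.0 FPKM of these sums. The other 9 markers summed to 33.4, 22.9 and 24.6 FPKM, and among them Dcn, a collagen-binding proteoglycan gene, was highest in PS19 Zbp1+/- at 11.3, 4.70 and 20.7. Dcn was the exception between PS19 Zbp1+/- and PS19. Of the 8 markers tested there, Ptgds included, 7 were lower, 4 of them by at least 2-fold. Slc13a4 was at 9.86, 7.73 and 0.223 FPKM and Col1a2 at 1.75, 1.78 and 0.285. Both of these, and Col1a1 and Slc22a6, reached 1 FPKM in PS19 but not in PS19 Zbp1+/-. Their direction in that comparison was therefore fixed by entry, and the count of lower markers rests in part on it. The part of meningeal cells in the connexin values was not tested.

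S100b encodes a calcium-binding protein of astrocytes that also marks part of the oligodendrocyte lineage (ENSMUSG00000033208; chromosome 10, 76253853 to 76261159, plus strand). It was at 64.2 FPKM for WT, 101.8 for PS19 and 43.2 for PS19 Zbp1+/-, from 1645, 2612 and 1015 reads. Its ratio was 1.58 for PS19 over WT (1.49 to 1.69), 0.424 for PS19 Zbp1+/- over PS19 (0.394 to 0.457) and 0.673 for PS19 Zbp1+/- over WT (0.621 to 0.728). PS19 Zbp1+/- was thus further below WT for S100b than for any other of the 9. Oligodendrocyte markers had the same order of libraries: their 12 genes summed to 937 FPKM for WT, 1669 for PS19 and 612 for PS19 Zbp1+/-, and 0 of them were at 0. All 12 were higher in PS19 than in WT, and 11 were called lower in PS19 Zbp1+/- than in PS19. The ratio of S100b to Mbp, the myelin basic protein gene, was 0.236 for WT (0.225 to 0.248), 0.211 for PS19 (0.202 to 0.219) and 0.233 for PS19 Zbp1+/- (0.219 to 0.248). The part of oligodendrocyte RNA in the S100b values was not tested. The 3′ end of S100b overlaps Dip2a on the opposite strand, which had 1471, 2148 and 2056 reads, and whether the counting used strand is not given in the sources used here.

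All 9 members of the S100 family that were tested between PS19 and WT, S100b included, were higher in PS19, with 2 called at 2-fold. These were S100a6, at 5.81, 19.2 and 4.44 FPKM in WT, PS19 and PS19 Zbp1+/-, and S100a11, at 3.29, 9.73 and 3.83. Among the 9 tested, S100a8 and S100a9 reached 1 FPKM in PS19 alone and could only come out higher there. S100a1 had an order like that of S100b, at 60.8, 71.6 and 40.3 FPKM. S100a10 was at 9.90, 15.4 and 11.4 FPKM. S100a13 was at 17.2, 22.5 and 16.4 FPKM and S100a16 at 34.8, 41.4 and 33.8. All of these were highest in PS19. Against PS19, PS19 Zbp1+/- was lower in all 9 tested, with a median of -1.15. In 5 of them it was lower by at least 2-fold: S100b, S100a6, S100a11, S100a8 and S100a9, with the direction of the last 2 fixed by entry.

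**Figure D3:**
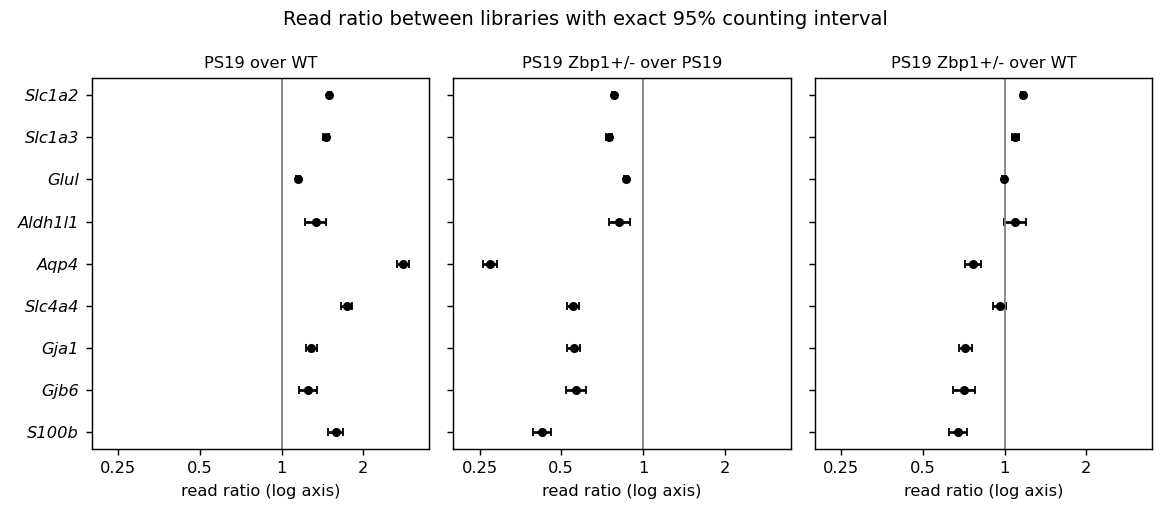
Read ratio between 2 libraries (horizontal axes, log scale, grey line at 1) for each of the 9 genes, with the exact 95% counting interval as bars. PS19 over WT runs from 1.15 for Glul to 2.80 for Aqp4, PS19 Zbp1+/- over PS19 from 0.273 to 0.866, and PS19 Zbp1+/- over WT from 0.673 for S100b to 1.17 for Slc1a2.

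How far the 9 genes kept their proportions was described over all 36 pairs, by the highest over the lowest of the 3 within-library ratios. The proportion varied by less than 1.1-fold in 3 pairs: Gja1 with Gjb6 (1.03), Slc1a2 with Slc1a3 (1.07) and Slc1a3 with Aldh1l1 (1.09). It varied by more than 2-fold in 8 pairs. Of these, 7 were pairs with Aqp4, and the other was Glul with S100b, at 2.04. The widest was Glul over Aqp4, at 19.2 for WT, 7.87 for PS19 and 25.0 for PS19 Zbp1+/-. Aqp4 over Gja1 was 1.21 for WT (1.14 to 1.28), 2.62 for PS19 (2.52 to 2.73) and 1.29 for PS19 Zbp1+/- (1.20 to 1.38).

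**Figure D4:**
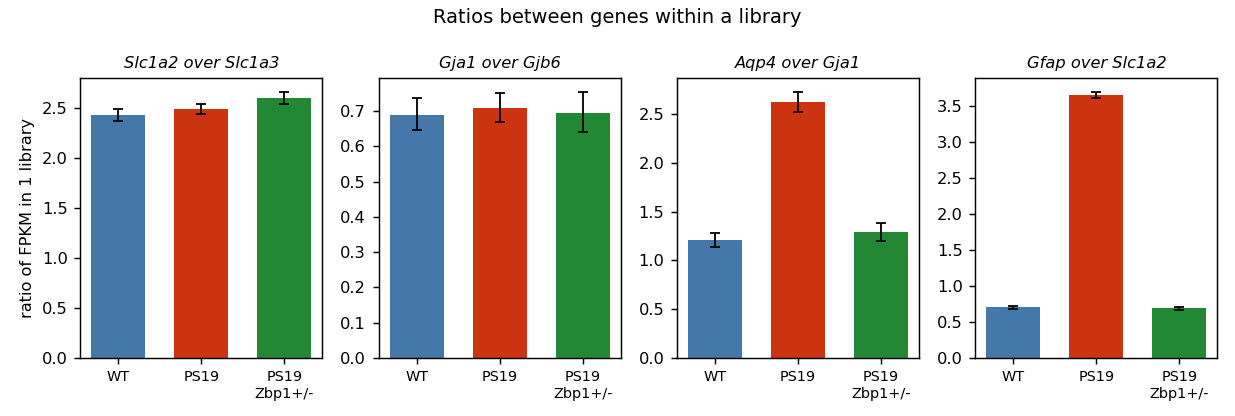
Ratio of the FPKM of 2 genes within a library (vertical axes, starting at 0) for the WT, PS19 and PS19 Zbp1+/- libraries, with exact 95% counting intervals as black bars. Slc1a2 over Slc1a3 stays between 2.43 and 2.60 and Gja1 over Gjb6 between 0.690 and 0.710, whereas Aqp4 over Gja1 and Gfap over Slc1a2 peak in PS19 at 2.62 and 3.65.

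Reactive astrocyte genes had a larger median difference than the 9. Gfap was at 98.4 FPKM for WT, 768 for PS19 and 112 for PS19 Zbp1+/-. Its ratio to Slc1a2 was 0.701 for WT (0.683 to 0.719), 3.65 for PS19 (3.61 to 3.70) and 0.686 for PS19 Zbp1+/- (0.669 to 0.703). Of 19 reactive astrocyte genes tested between PS19 and WT, 13 were called higher and 0 lower, with a median of 1.59. Only 11 of the list reached 1 FPKM in WT or PS19 Zbp1+/-. The others that were tested reached it in PS19 alone, so they could only come out higher there in both comparisons with PS19. Lcn2, C3, Cd44, Osmr, Timp1, Cxcl10 and Socs3 are such genes among those called higher. The counts and medians of this list rest in part on that entry rule. In PS19 Zbp1+/- against PS19, 12 were called lower and 1, Gap43, higher. Vim, another intermediate filament gene, was at 12.6, 61.5 and 8.54 FPKM, and the protease inhibitor gene Serpina3n at 21.8, 157 and 26.8. Gap43, which neurons express strongly, ran the other way at 95.4, 49.5 and 141 FPKM.

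Other astrocyte lists had medians nearer 0. Of 20 further astrocyte transporter and channel genes, 14 were higher in PS19 than in WT, 2 were called higher and 0 lower, and the median was 0.28. The called genes were the potassium channel gene Kcnj10, at 23.1, 48.4 and 25.5 FPKM in WT, PS19 and PS19 Zbp1+/-, and the urea transporter gene Slc14a1, at 4.66, 14.7 and 4.35. The sodium pump subunit gene Atp1b2 was at 92.5, 159 and 128 FPKM. Ttyh1, a chloride channel family gene, was level at 63.8, 66.4 and 66.0 FPKM. Between PS19 Zbp1+/- and PS19, 3 genes of this list were called lower and 0 higher, with a median of -0.27. They were Slc14a1, the cystine transporter gene Slc7a11 and the calcium-permeable channel gene Trpv4. Slc7a11 was at 3.63, 4.71 and 1.79 FPKM in WT, PS19 and PS19 Zbp1+/-, and Trpv4 at 6.58, 6.09 and 0.419. As Trpv4 did not reach 1 FPKM in PS19 Zbp1+/-, it could only come out lower there. Trpv4 was highest in WT, as the summed choroid plexus markers were, and the cells it came from were not tested.

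Astrocyte metabolism genes had a median of 0.22 between PS19 and WT and -0.14 between PS19 Zbp1+/- and PS19, with 0 of 20 called in either. The glycolytic enzyme gene Aldoc was at 202 FPKM for WT, 239 for PS19 and 295 for PS19 Zbp1+/-, Mt3, a metallothionein gene, at 208, 199.7 and 135, and the glutamate dehydrogenase gene Glud1 at 70.9, 71.6 and 65.1. Aldoc had its highest level in PS19 Zbp1+/-, and Mt3 and Glud1 had their lowest level there. Astrocyte identity genes had medians of 0.12 and -0.15. Their most abundant genes were Sparcl1, a secreted synapse-organising protein, at 477, 594 and 457 FPKM, Ndrg2 at 219.7, 237 and 279, and the receptor gene Gpr37l1 at 89.8, 134 and 134. Of 24 identity genes tested, 1 was called lower in PS19 than in WT: Hes5, a Notch target, at 3.83, 1.23 and 5.98 FPKM from 90, 29 and 129 reads. Between PS19 Zbp1+/- and PS19, Hes5 and the phagocytosis bridging gene Mfge8 (21.1 and 66.5 FPKM) were called higher, and the tissue factor gene F3 (25.2 and 10.6) and Id4 (33.9 and 12.0) lower.

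**Figure D5:**
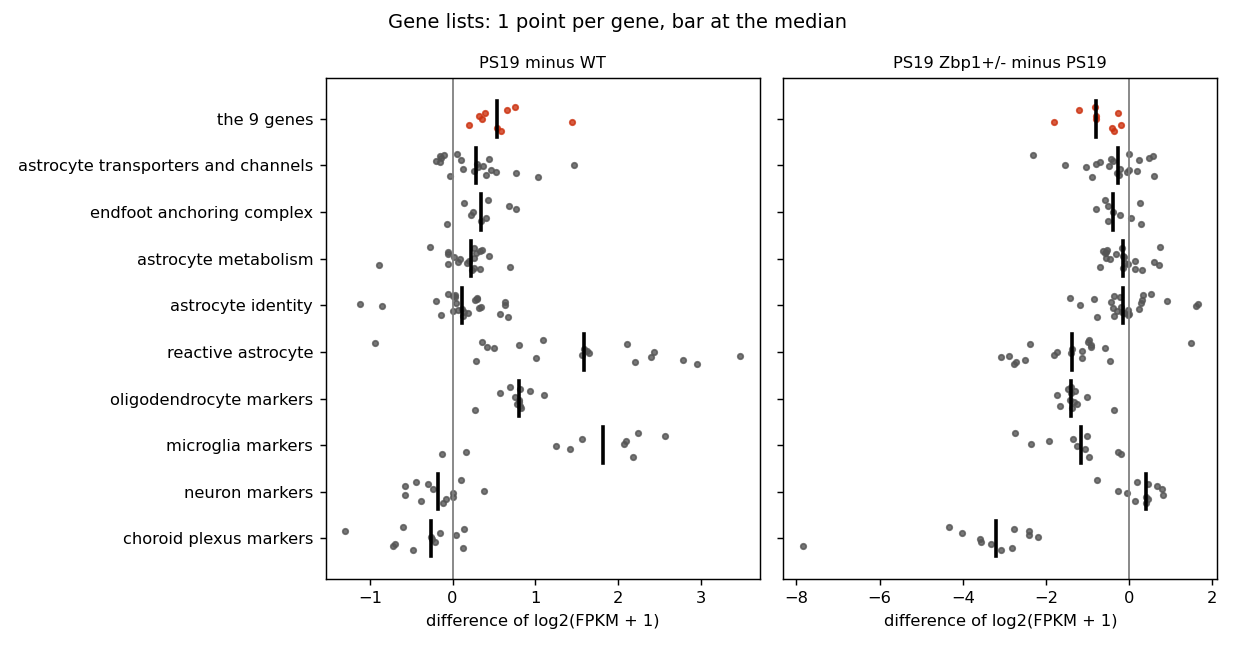
Difference of log2(FPKM + 1) for PS19 minus WT (left) and PS19 Zbp1+/- minus PS19 (right), 1 point per gene tested, by gene list, with a black bar at each median and the 9 genes in red. The 9 genes have medians of 0.54 and -0.79, astrocyte identity genes 0.12 and -0.15, and reactive astrocyte genes 1.59 and -1.37. Several reactive astrocyte genes reached 1 FPKM in PS19 alone, which fixed their direction.

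Markers of other cells also differed between the libraries. Between PS19 and WT the median was 0.80 over 12 oligodendrocyte markers, 1.82 over 10 microglia markers, 0.33 over 8 oligodendrocyte precursor markers and -0.18 over 12 neuron markers. Between PS19 Zbp1+/- and PS19 these medians were -1.39, -1.15, 0.05 and 0.40. Microglia markers summed to 199 FPKM for WT, 749 for PS19 and 206 for PS19 Zbp1+/-, and neuron markers to 2054, 1652 and 2388. Ependymal markers, which matter for Aqp4 and Gja1, summed to 48.2, 42.7 and 13.6 FPKM, with Mia at 0 in every library and Foxj1, their regulator of cilia, at 9.37, 11.8 and 2.34. Neither ependymal nor choroid plexus markers were highest in PS19 as sums. Endothelial markers summed to 88.5, 96.1 and 91.7 FPKM, with a median of 0.05 between PS19 and WT. The part of these cells in the values of the 9 genes was not tested.

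The 9 genes lie on 8 chromosomes, with Gja1 and S100b both on chromosome 10. Their median GC content was 45.9% in the longest GENCODE M21 transcript, against 50.1% for protein-coding genes that reached 1 FPKM, and ran from 41.4% for Aqp4 to 54.4% for Aldh1l1. The gene length used for FPKM ran from 1484 bases for S100b to 13133 for Slc1a2.

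The genes with the profile most like the median of the 9 were sought among 4831 protein-coding genes with a mean FPKM of at least 10, by Euclidean distance between log2(FPKM + 1) values centred on each gene's mean. With only 3 libraries this is a description. The 5 closest were Scarb2 and Ctsa, which encode lysosomal proteins, Fa2h, a fatty acid hydroxylase of myelin, Csrp1 and the phospholipase gene Pla2g7, at distances of 0.0575 to 0.0672. Scarb2 was at 20.9 FPKM for WT, 30.6 for PS19 and 18.7 for PS19 Zbp1+/-. Pla2g7 was at 42.8, 60.8 and 37.8 FPKM. The member closest to the median of its own group was Slc4a4, in place 72 of the ranking, and the farthest was Aqp4, in place 3812.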

How the data were processed

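Hippocampal RNA of 3 mice or pools was sequenced, 1 library per genotype. Extraction used TRIzol and library preparation an NEB Next Ultra kit, per the labels' protocols. The submitters' processing notes name Trim Galore 0.6.5, STAR 2.5.3a, featureCounts 2.0.4 and mm39. The authors deposited 1 table of FPKM values with 1 column per sample, and 0 other per-sample columns were left unused. Of its gene IDs, 54409 are in GENCODE M21 (GRCm38), 98.3% of them at the same position, so positions are given on GRCm38. Each deposited FPKM times gene length was a whole multiple of 1 step (within 0.01) for 100% of values, which gave whole reads. The implied library sizes, 17253479, 17287957 and 15826984, differ from the sums of recovered reads, so the deposited values carry a scaling other than by total reads.

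Differences are of log2(FPKM + 1). Protein-coding genes entered a comparison where 1 of its libraries reached 1 FPKM. A gene that reached it in only 1 of the 2 could come out higher only in that library. Read ratios divide reads by the implied library size, and their 95% intervals are exact (Clopper-Pearson). The labels name no molecular identifiers, so several reads can stem from 1 molecule, and intervals and floors (3 reads) cover counting error only. The members, the 20 other lists and their use were chosen with earlier results of these data known. Genes named are the 9 members, the 3 genes of highest mean FPKM in a list, relatives of a member with a mean FPKM of at least 1, Gfap, Vim, label checks and the 5 nearest profiles. Genes named because they made up a small count were chosen after their values were seen. Some genes that this rule names are not reported here. Alternatives were 2 pseudocounts, 2 filters, 3 scalings, all biotypes and 2 thresholds. A correction for GC content (10 bins) and length (5 bins) was added after the data were seen. Transcripts were compared with BLAST at 90% identity over at least 200 bases. Read recovery, calls and intervals were tested on simulated data. Software was scipy 1.17.1, pandas 2.3.3, numpy 2.4.6 and matplotlib 3.10.9 under Python 3.11.15.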

Additional observations from a re-analysis of the deposited data

How the results depend on the processing

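No paired analysis was possible because each genotype has 1 library, and for the same reason no replicate could be left out. All 9 members kept their direction between PS19 and WT and between PS19 Zbp1+/- and PS19 under each of the 9 alternatives that gave a difference. Between PS19 Zbp1+/- and WT 6 members did so in all 9. There Slc1a3 turned to -0.029 under TPM and -0.027 under total-read scaling, Aldh1l1 to -0.026, -0.024 and, after the GC and length correction, -0.079, and Glul to 0.067 after that correction. TPM moved the median of all genes by 0.11 between PS19 and WT, -0.25 between PS19 Zbp1+/- and PS19 and -0.14 between PS19 Zbp1+/- and WT, and total-read scaling moved it by 0.03, -0.16 and -0.14. The median of the 9 members was 0.67 between PS19 and WT under TPM and 0.47 after the GC and length correction. It was -1.06 between PS19 Zbp1+/- and PS19 under TPM and -0.97 under total-read scaling, and between PS19 Zbp1+/- and WT it was -0.20 under both. The cause was not tested. Members called higher in PS19 than in WT numbered 3 at 1.5-fold and 0 at 4-fold, where 6.34% and 0.291% of all genes were called. Members called lower in PS19 Zbp1+/- than in PS19 numbered 5 at 1.5-fold, 0 at 4-fold and 5 under TPM, where 12.1%, 0.814% and 7.9% of all genes were. With 9 genes, the counts of 0 at 4-fold carry no information. The smallest count of a member was 801 reads, and depth limited only ratios near 1, those of Glul, Slc4a4 and Aldh1l1 between PS19 Zbp1+/- and WT and of Gja1 over Aldh1l1 in PS19 Zbp1+/-.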
